A study of Mus musculus with 20 samples.

Results

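Cartilage owes its matrix to more than collagen, and 10 genes for secreted or membrane-bound proteins of that matrix were followed here through the intervertebral disc: Acan, Hapln1, Comp, Chad, Cytl1, Matn3, Matn4, Cnmd, Tnmd and Ucma. Members were taken by gene symbol, 10 of the 19505 genes that the arrays name, and each is measured by a single probe set. RNA came from annulus fibrosus (AF) and nucleus pulposus (NP) of the same 10 mice at 13 weeks of age, 5 wildtype (WT) and 5 homozygous for the progressive ankylosis allele (ank, genotype ank/ank), with 2 males and 3 females per genotype. Per the methods the WT mice were littermates from heterozygous parents of the C3FeB6 A/Aw-J stock, and the disc tissue of an animal was pooled into 1 sample. The methods name caudal discs whereas the sample labels add lumbar discs, and how many of each entered a sample is not given in the sources used here. The allele is a germline loss of function in every cell. Each tissue of each mouse was hybridised to 1 Clariom S array, 20 in all, and the deposited unit is a log2 expression value, so a step of 1 is a doubling of signal.

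Aggrecan, encoded by Acan, is the proteoglycan whose charged chondroitin sulfate chains hold water in cartilage and in the disc, and link protein, encoded by Hapln1, locks it onto hyaluronan. Around this gel stand adaptors that connect collagen fibrils, proteoglycans and cells: cartilage oligomeric matrix protein (Comp, a thrombospondin), chondroadherin (Chad, a leucine-rich protein bound by integrins) and the matrilins (Matn3, Matn4). Chondromodulin (Cnmd) and its relative tenomodulin (Tnmd) are membrane proteins of avascular cartilage and of tendon and ligament, Ucma is a vitamin K-dependent Gla protein of chondrocytes that binds calcium, and Cytl1 is a small secreted protein made by chondrocytes. ANK itself exports pyrophosphate and ATP, and extracellular pyrophosphate keeps mineral from forming in such matrices.

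Background was set on each array by 1425 chemosensory receptor genes, whose 95th percentile a gene had to pass to count as measured there (above background). The AF arrays held 1781 to 6362 such genes and a control AUC, the separation of positive from negative control probe sets, of 0.590 to 0.763, against 4003 to 7429 genes and 0.7097 to 0.789 in the NP. The median of all values ran from 5.72 to 5.998 on AF arrays and from 6.12 to 6.41 on NP arrays. Whether both tissues went through the same normalization run is not given in the sources used here, and tissue differences were therefore taken after joint quantile normalization of all 20 arrays. Of the 7 NP markers measured, 6 were above background in most NP arrays of either genotype. Scx, Mkx and Sfrp2, markers of annulus and tendon cells, were above background on no array of either tissue, whereas Col1a1, Col1a2, Fmod and Thbs4 of that list were above it in most AF arrays. AF WT replicate 33 stood apart: its mean over 8 skeletal muscle markers was 13.10, where the median AF WT array had 6.29, its mean over 6 osteoblast markers was 13.92 and its mean over 7 NP markers was 8.69, the lowest of the AF arrays. In bulk tissue of this kind fewer cells of a type and less RNA per cell cannot be told apart.

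The tissues divided these genes sharply. In the AF 6 members were above background on all 10 arrays, Ucma on 7, Matn3 and Tnmd on 2 each and Matn4 on none. In the NP only Acan and Hapln1 were above background on all 10 arrays, Cytl1 on 8, Chad on 3, Comp and Cnmd on 1 each, and Matn3, Matn4, Tnmd and Ucma on none. Acan had like values in both tissues, whereas Comp, Chad and Cytl1 were lower in the NP than in the AF of the same animal in all 10 mice.

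**Figure D1:**
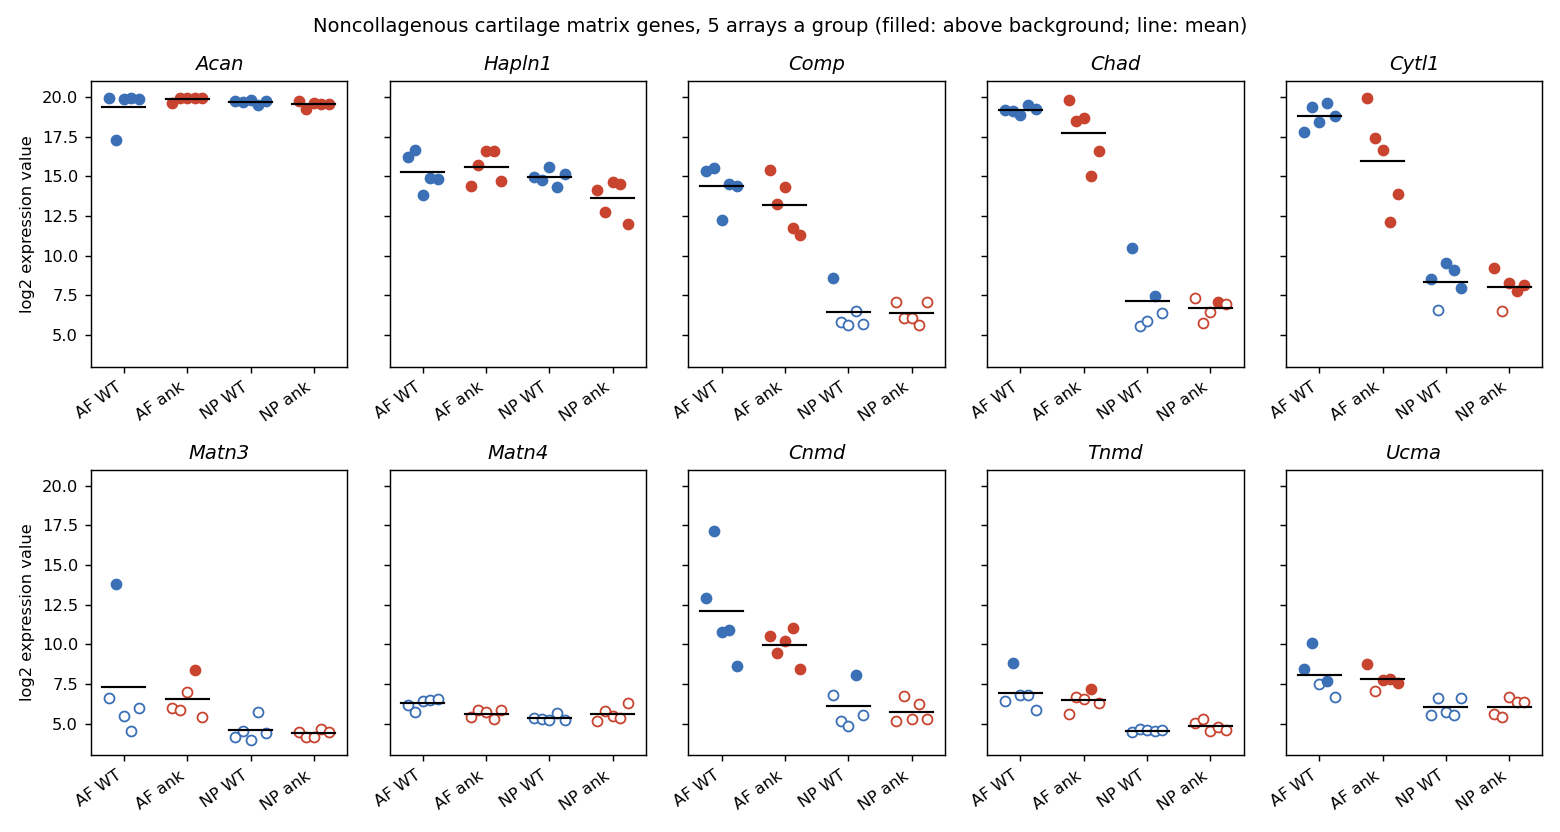
Each panel plots the log2 expression value of a gene on the 5 arrays of AF WT, AF ank, NP WT and NP ank mice; a filled point lay above the background of its array, an open point did not, and the line is the group mean. Acan and Hapln1 are filled in every group, and Matn4 is open throughout. Comp, Chad and Cnmd are filled on all AF arrays and on few NP arrays, Cytl1 on all AF and most NP arrays.

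Acan, in the order of WT mice 32, 33, 53, 55 and 59, read 19.93, 17.29, 19.89, 19.93 and 19.899 in the AF and 19.74, 19.69, 19.80, 19.51 and 19.71 in the NP. In ank mice 31, 34, 39, 41 and 48 it read 19.58, 19.93, 19.91, 19.93 and 19.93 in the AF and 19.76, 19.22, 19.60, 19.56 and 19.55 in the NP. The tissues overlapped in both genotypes, and the values lay near each other except on the array of WT replicate 33. On 8 of the 10 AF arrays Acan lay within 0.1 of the highest value of the array, so that a difference above that level could not be seen. With the mouse as a block, limma gave an NP minus AF log2 difference of 0.19 ± 0.46 (SE, n = 5 mice, adjusted p = 0.79) in WT mice, whose sign turned to -0.31 without mouse 33, and of -0.42 ± 0.30 (adjusted p = 0.37) in ank mice.

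Hapln1 was measured on every array of both tissues. In the AF it read 16.20, 16.65, 13.85, 14.89 and 14.81 in WT mice and 14.36, 15.73, 16.59, 16.61 and 14.71 in ank mice. In the NP it read 14.94, 14.76, 15.60, 14.31 and 15.11 in WT mice and 14.12, 12.74, 14.61, 14.54 and 12.0001 in ank mice. As deposited, the tissues overlapped in both genotypes. After joint normalization link protein was lower in the NP of all 10 mice, with an NP minus AF difference of -2.26 ± 0.39 (limma, adjusted p = 0.0038) in WT mice and of -3.07 ± 0.31 (adjusted p = 0.00057) in ank mice. In WT mice this call depended on the scaling, since the difference was -0.33 (adjusted p = 0.58) on the values as deposited and -0.67 (adjusted p = 0.32) on arrays centred on their medians.

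Comp belonged to the AF. In WT mice its AF values were 15.35, 15.49, 12.21, 14.53 and 14.40 and its NP values 8.58, 5.82, 5.61, 6.48 and 5.70. In ank mice its AF values were 15.41, 13.27, 14.34, 11.74 and 11.32 and its NP values 7.07, 6.04, 6.05, 5.64 and 7.05. Every AF value of Comp lay above every NP value, and in the NP Comp was above background on the array of WT replicate 32 alone. In WT mice the NP minus AF difference of the values was -9.23 ± 0.38 (limma, adjusted p = 1.306e-07), with the NP at background on 4 of 5 arrays. In ank mice no NP array was above background, and only a bound can be given. After joint normalization, and with no NP value taken below the background of its array, Comp was at least 99.5-fold higher in the AF. This bound and those below hold for that scaling and were not taken on the values as deposited. As deposited, the ank AF mean of Comp was 13.21, beside 13.90 after joint normalization. Limma's adjusted p of 0.00044 belongs to the difference of the values, -7.74, and does not test the bound. That NP array of WT replicate 32 also held Chad at 10.46, Prg4, the lubricin gene of joint surfaces, at 10.84 and Clec3a, a cartilage lectin, at 8.61, each the highest of the NP WT arrays, and their part in the result was not tested.

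Chad read 19.15, 19.14, 18.83, 19.50 and 19.22 in the AF of WT mice and 10.46, 5.59, 5.88, 7.43 and 6.41 in their NP. In ank mice it read 19.78, 18.48, 18.64, 15.00 and 16.61 in the AF and 7.30, 5.74, 6.44, 7.08 and 6.93 in the NP. The NP minus AF difference was -12.53 ± 0.55 (limma, adjusted p = 1.306e-07) in WT mice and -11.25 ± 0.73 (adjusted p = 3.56e-05) in ank mice, the NP being above background on 2 and 1 of 5 arrays, so that its level there is mostly unmeasured. Even the lowest AF array, that of ank replicate 41, lay above the highest NP array.

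Cytl1 differed from Comp and Chad in that most NP arrays still showed it. Its AF values were 17.76, 19.39, 18.41, 19.64 and 18.80 in WT mice and 19.93, 17.41, 16.65, 12.08 and 13.86 in ank mice. Its NP values were 8.53, 6.60, 9.53, 9.12 and 7.97 in WT mice and 9.23, 6.54, 8.29, 7.80 and 8.16 in ank mice. The NP value was above background in 4 of 5 mice of either genotype, WT replicate 33 and ank replicate 34 being below it. The NP minus AF difference was -11.29 ± 0.44 (limma, adjusted p = 9.148e-08) in WT mice and -8.44 ± 0.92 (adjusted p = 0.00068) in ank mice.

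Cnmd, the gene of an inhibitor of vessel growth in cartilage, read 12.94, 17.15, 10.75, 10.87 and 8.64 in the AF of WT mice and 10.49, 9.47, 10.22, 11.02 and 8.42 in that of ank mice. In the NP it ran from 4.84 to 8.05 in WT mice and from 5.19 to 6.77 in ank mice, above background only on the array of WT replicate 55. The difference was -7.16 ± 0.93 (limma, adjusted p = 0.00104) in WT mice, against an NP mostly at background. In ank mice, with no NP array above background, Cnmd was at least 10.04-fold higher in the AF after joint normalization. As deposited, its ank AF mean was 9.92, beside 10.59 after joint normalization. Limma's adjusted p of 0.00057 is that of the difference of the values, -5.02, not of the bound. The NP array of WT replicate 55 also held Mmp13, a collagenase of hypertrophic cartilage, at 10.01, Acp5 of osteoclasts at 10.86 and Col1a2 at 14.59, and their part in the value of Cnmd was not tested.

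Ucma was weaker. Its AF values were 8.41, 10.05, 7.51, 7.66 and 6.67 in WT mice and 8.76, 7.05, 7.73, 7.80 and 7.58 in ank mice, above background in 3 and 4 arrays. In the NP it ran from 5.57 to 6.64 in WT mice and from 5.41 to 6.67 in ank mice, never above background. Against the bound that background sets after joint normalization, Ucma was at least 3.14-fold higher in the AF of WT mice. In that of ank mice it was at least 2.06-fold higher. The AF means of these bounds were 8.62 and 8.30, against 8.06 and 7.79 as deposited, and include arrays below background. Limma's adjusted p, 0.00406 and 0.01043, tested the differences of the values, -2.74 and -2.46, rather than these bounds.

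Matn3, Matn4 and Tnmd were above background on too few arrays to be tested. Matn3, a matrilin of growth plate and articular cartilage, read 13.78 in the AF of WT replicate 33 and 8.41 in that of ank replicate 41, and lay between 3.99 and 7.02 on the other 18 arrays. Tnmd, a marker of tendon and ligament cells, was above background on the same AF arrays, at 8.83 in WT replicate 33 and 7.16 in ank replicate 41. Matn4 stayed between 5.19 and 6.56 on all 20 arrays.

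Read against the other genes, 6 of the 7 members tested were lower in the NP at an adjusted p under 0.05 in WT mice and again 6 of 7 in ank mice. Over all 6513 genes tested the percentage called in either direction was 24.8 in WT mice and 8.12 in ank mice, and the percentage called lower in the NP was 7.26 and 3.27. Comp, Chad, Cnmd and Ucma entered the test only through the AF, where they are high, and had to differ, so the count of members called is no support. Of the 3 that were above background in at least 5 arrays of both tissues, Hapln1 and Cytl1 were called and Acan was not. The median difference over all genes tested was 0.33 in WT and 0.18 in ank mice. The genotypes share no arrays, though all 20 were normalized together.

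**Figure D2:**
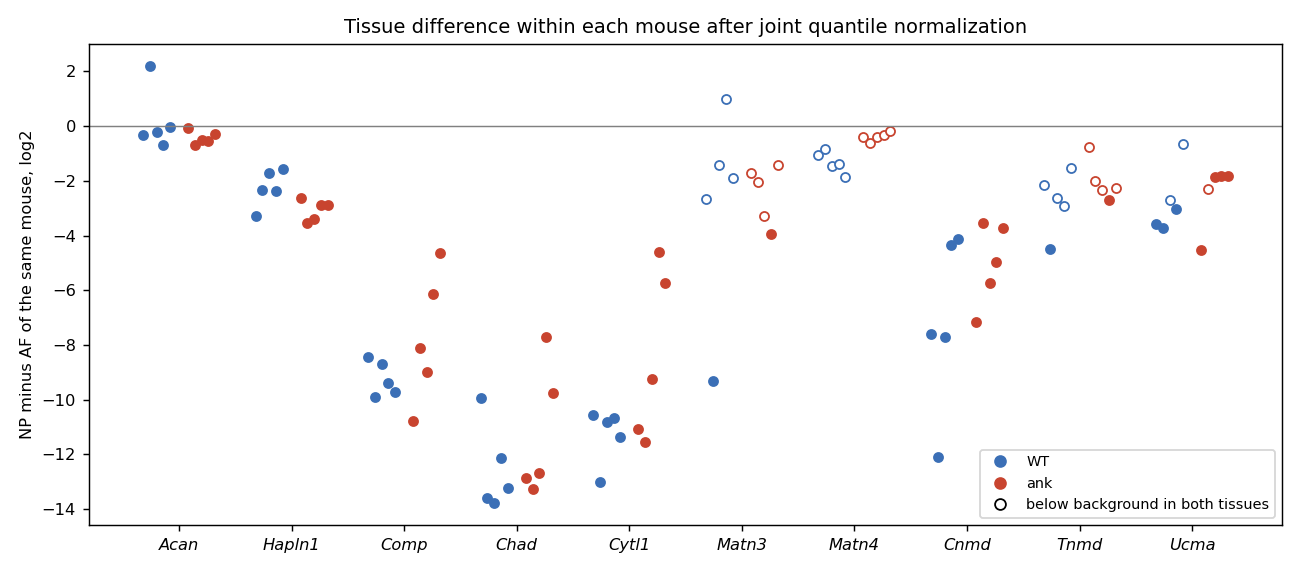
The vertical axis is the log2 value in the NP minus that in the AF of the same mouse after joint quantile normalization, with 5 WT and 5 ank mice for each gene; open points are genes below background in both tissues of that mouse. Chad and Cytl1 lie far below 0 in all 10 mice, while Acan lies near 0 except in WT mouse 33 at 2.20.

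Genes of the same matrix outside this set met the same limit. Of 16 other noncollagenous cartilage matrix genes 9 were tested, 8 of them admitted only through the AF, and 8 were called lower in the NP of WT mice and 6 in that of ank mice, a count that the filter favours. The differences with the smallest p, each with the NP above background on 3 or 4 of 10 arrays, were Clec3a at -11.19, Prg4 at -10.07 and the versican gene Vcan at -8.49 in WT mice, and at -11.36, -10.05 and -7.68 in ank mice. Of the 4 thrombospondins, the family of Comp, 3 were admitted only through the AF. Thbs1 was above background on no NP array. After joint normalization it was at least 29.3-fold higher in the AF of WT mice and at least 23.5-fold higher in that of ank mice. Thbs2, above background on most arrays of both tissues, was called lower in the NP at -3.07 in WT and -3.22 in ank mice. Of 6 cartilage collagens 4 were tested, and 3 were called lower in WT and 2 in ank mice. Among them Col11a1, likewise above background on most arrays of both, differed by -3.05 and -1.92. Sox9, which switches on Acan, Hapln1, Comp and Matn3 in chondrocytes, differed by -0.07 ± 0.41 (adjusted p = 0.92) in WT mice and 0.03 ± 0.36 (adjusted p = 0.96) in ank mice, and its partner Sox6 was called 1.96 higher in the NP of WT mice. These sizes depended on the scaling. As deposited, the mean NP minus AF difference of Sox9 was 1.92 in WT and 0.71 in ank mice. That of Col11a1 was -1.70 and -1.06 and that of Thbs2 -1.57 and -2.12. Among proteases of this matrix 3 of 9 were tested. Mmp3 was above background on no NP array. After joint normalization it was at least 2.35-fold higher in the AF of WT and at least 2.17-fold higher in that of ank mice.

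The second question of the design was whether loss of ANK changed these genes within a tissue. After adjustment over all genes no member changed in the AF or in the NP, where limma called 0 of 4077 and 0 of 6341 genes (percentage called 0 and 0, with 154 and 269 genes at an unadjusted p under 0.05). The study itself took genes with a fold of 1.75 or more at an unadjusted p under 0.05. By these thresholds Cytl1 was lower in the AF and Hapln1 was lower in the NP of ank mice. These thresholds took 3.7 percent of all genes tested in the AF and 3.31 percent in the NP, beside 1 of 7 and 1 of 3 members. Counted as lower in ank only, they took 0.147 percent in the AF, 6 genes beside 145 that were higher, and 2.81 percent in the NP, 178 genes beside 32 that were higher.

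**Figure D3:**
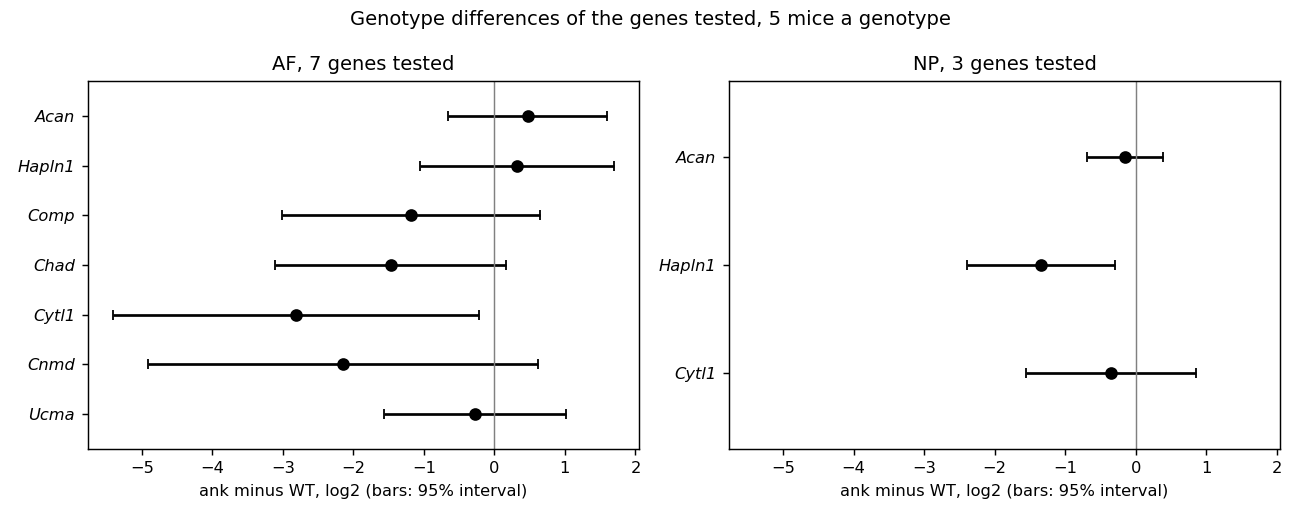
Points give the ank minus WT log2 difference of each gene tested in the AF (7 genes) and the NP (3 genes) and bars its 95% interval from limma, 5 mice per genotype. The interval of Cytl1 in the AF and that of Hapln1 in the NP lie below 0 before adjustment over all genes.

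Cytl1 in the AF had a mean of 18.80 ± 0.75 (SD, n = 5) in WT mice and of 15.99 ± 3.07 in ank mice, with the 5 ank values from 12.08 to 19.93 spread across and below the WT range. The lowest 4 values of the tissue were all of ank mice, while ank replicate 31 had the highest of all and lay at the top of the scale. The ank minus WT difference was -2.81 ± 1.19 (SE; 95% interval -5.41 to -0.21; limma, adjusted p = 0.95). Without WT replicate 33, 53 or 55 or without ank replicate 41 or 48 no member met the study's thresholds, and without ank replicate 31 Cytl1, at -3.80, was among 3 that did. The arrays fall into 2 sets by the level of their spiked control RNAs, and the difference was 0.09 within the set of 2 WT and 2 ank mice and -4.75 within that of 3 and 3.

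Chad followed Cytl1 through the mice. It had a mean of 19.17 ± 0.24 in WT and of 17.70 ± 1.89 in ank AF, a difference of -1.47 ± 0.75 (95% interval -3.11 to 0.17; limma, adjusted p = 0.95), and -0.02 and -2.43 within the spike-in sets. Without ank replicate 41 it was -0.79. Comp had means of 14.40 ± 1.31 and 13.21 ± 1.72, a difference of -1.18 ± 0.84 (95% interval -3.01 to 0.65, adjusted p = 0.95), which was -1.08 and -1.25 within the sets. In all 3 genes the lowest AF values were those of ank replicates 41 and 48.

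Those same AF arrays had the highest mean of the NP markers. The mean over 7 NP markers was 14.12 in ank replicate 41 and 14.46 in ank replicate 48, against 8.69 to 13.26 in WT mice and 10.44 to 13.47 in the other ank mice. Krt19, a keratin of NP cells, read 15.27 and 16.20 there, 9.37, 14.42 and 11.32 in ank replicates 31, 34 and 39 and 4.24 to 12.68 in WT mice. The markers were not uniform, for Krt18 read 8.54 in ank replicate 41, within the WT range of 5.99 to 9.49, Noto was above background on no AF array, and ank replicate 34 had high Krt19 with Chad at 18.48. None of the 6 NP markers tested in the AF was called, 5 of them lay higher in ank mice, and their median difference was 1.78 beside 0.28 over all genes tested. Of the cartilage transcription factors Sox9 met the study's thresholds, with a mean of 16.82 in ank and 14.35 in WT AF (difference 2.47 ± 0.97, adjusted p = 0.95), and it read 18.80 and 18.89 in ank replicates 41 and 48. Ank replicates 41 and 48 also had the most genes above background of the ank AF arrays, 6120 and 5524 (control AUC 0.749 and 0.724). Ank replicate 31, highest in Cytl1 and Chad, had the fewest, 1781 (0.590). Replicate 41 led the ank AF arrays in osteoblast and hypertrophic chondrocyte marker means, 8.81 and 8.33. Replicate 48 had 6.54 and 7.04. The mean over 7 annulus and tendon markers was 10.90 in replicate 41, the highest of the ank AF arrays, and 9.43 in replicate 48. It was 8.77, 10.24 and 10.15 in ank replicates 31, 34 and 39, and 9.68 to 12.10 in WT mice. The part of NP tissue, other tissues or array quality in the values of Cytl1, Chad and Comp was not tested.

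**Figure D4:**
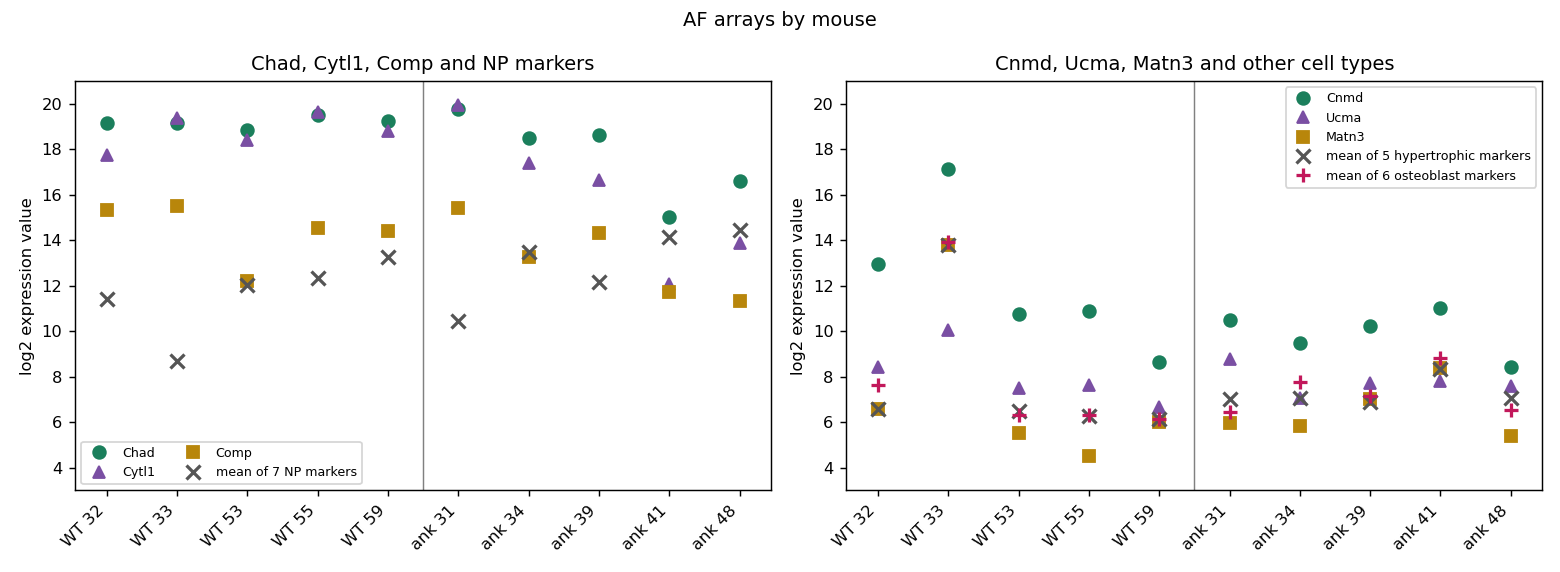
Log2 values on the 10 AF arrays, WT mice left of the line and ank mice right of it; the left panel plots Chad, Cytl1 and Comp with the mean of 7 NP markers, the right panel Cnmd, Ucma and Matn3 with the means of 5 hypertrophic chondrocyte and 6 osteoblast markers. Cytl1 is lowest in ank 41 and ank 48, where the NP marker mean is above 14, and Cnmd, Matn3 and Ucma are highest in WT 33, where both other marker means are above 13.

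Cnmd in the AF had a mean of 12.07 ± 3.22 in WT and of 9.92 ± 1.01 in ank mice, a difference of -2.15 ± 1.27 (95% interval -4.91 to 0.62; limma, adjusted p = 0.95). WT replicate 33 set much of it, for without that array the difference was -0.88 ± 0.80 (limma, adjusted p = 0.73), and it was -5.06 within the spike-in set that holds it and -0.20 within the other. Ucma differed by -0.28 ± 0.59 (adjusted p = 0.95) and by 0.22 without WT replicate 33. That array had the highest AF values of Hapln1, Comp, Matn3, Cnmd, Tnmd and Ucma together with the lowest of Acan, and its mean over 5 hypertrophic chondrocyte markers, 13.79, compared with 6.16 to 6.57 in the other WT mice, while its endothelium marker mean of 9.19 compared with a group median of 5.11. The part of these tissues in its values was not tested.

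Acan and Hapln1 in the AF showed small differences of 0.47 ± 0.51 (95% interval -0.65 to 1.59) and 0.32 ± 0.63 (95% interval -1.05 to 1.69), both at an adjusted p of 0.95. Neither sign was stable, as Acan gave -0.054 without WT replicate 33 and Hapln1 gave -0.036 without WT replicate 53 and -0.37 after quantile normalization within the tissue. Over the 7 members tested in the AF, 2 had a positive and 5 a negative difference, with a median of -1.18 beside 0.28 for all genes tested. No member had genotypes free of overlap, which held for 0.343 percent of all genes tested in the AF and for 0.757 percent in the NP.

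In the NP the link protein gene Hapln1 had a mean of 14.95 ± 0.47 (SD, n = 5) in WT and of 13.60 ± 1.17 in ank mice. The ank values of replicates 34 and 48, at 12.74 and 12.0001, lay below every WT value, and the other 3 lay between 14.12 and 14.61, of which replicate 31 also lay below the WT range. The arrays of replicates 34 and 48 had the fewest genes above background of the NP arrays, 4003 and 4556. Their control AUC was also the lowest, 0.7097 and 0.711, and what this did to their Hapln1 values was not tested. The difference was -1.34 ± 0.49 (95% interval -2.39 to -0.29; limma, adjusted p = 0.97), and it was -1.28 and -1.44 within the spike-in sets. It ran from -0.94 without ank replicate 48 to -1.60 without ank replicate 39. Acan differed by -0.15 ± 0.25 and Cytl1 by -0.35 ± 0.56 in the NP, both at an adjusted p of 0.98.

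The surrounding matrix genes gave few differences by genotype. Of the 8 other noncollagenous matrix genes tested in the AF, 4 differed upwards and 4 downwards and none met the study's thresholds, those with the smallest p being Itgbl1 at -0.53, Vit at -1.34 and Cilp at 0.85. None of the 4 thrombospondins or the 3 cartilage collagens tested in the AF met them either. In the NP Thbs2, a thrombospondin of the matrix around cells, met them at -0.87 ± 0.36 (limma, adjusted p = 0.97). Of the annulus and tendon markers 3 were tested in the NP, and all were lower in ank mice. Col1a1 at -1.48 ± 0.61 and Fmod at -0.98 ± 0.43 met the thresholds (limma, both adjusted p = 0.97), and Col1a2 at -1.67 did not. The mean of that whole list was highest in NP WT replicate 55, at 10.10, and the part of annulus tissue was not tested.

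Whether the genotype acted alike in both tissues could be tested for the 3 members above background in both. For Hapln1 the ank effect in the NP less that in the AF was -1.67 ± 0.72 (95% interval -3.22 to -0.11; limma on the differences within each mouse, adjusted p = 0.80). For Cytl1 it was 2.47 ± 1.199 (95% interval -0.11 to 5.04, adjusted p = 0.80) and for Acan -0.62 ± 0.57 (adjusted p = 0.81). No gene of 3902 was called (percentage called 0, with 193 at an unadjusted p under 0.05), and the tissues were not shown to differ in their response.

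The members also varied between mice of the same genotype, and some did so in step. Deviations from the genotype mean were correlated over 10 mice for the 21 pairs of the 7 members tested in the AF, with permutation tests of 100000 resamples adjusted over the pairs. Chad and Cytl1 gave a Pearson r of 0.96 (permutation p = 0.00012, adjusted p = 0.00252) and a Spearman rho of 0.90 (permutation p = 0.00088, adjusted p = 0.0185). Their r was 0.87 without the 2 mice farthest from the median of Chad and 0.98 over the 6 mice of the larger spike-in set. Cnmd and Ucma gave r = 0.92 (permutation p = 0.00035, adjusted p = 0.00368) and rho = 0.84 (permutation p = 0.00362, adjusted p = 0.038), with 0.65 without the 2 farthest mice, WT replicate 33 included, and 0.91 in the larger set. In these subsets the deviations were still those from the genotype means of all mice. The r values of the subsets are therefore not free of WT replicate 33. Deviations were permuted over all 10 mice although their spread differed by genotype. The SD in WT and ank AF was 0.24 and 1.89 for Chad and 0.75 and 3.07 for Cytl1. For Cnmd it was 3.22 and 1.01, and for Ucma 1.27 and 0.62. The deviations were thus not fully exchangeable, and the permutation p values may be too small. Comp and Chad gave r = 0.75 (permutation p = 0.00813, adjusted p = 0.0424) but rho = 0.75 (permutation p = 0.0174) had an adjusted p of 0.12. Acan ran against Cnmd (r = -0.84, permutation p = 0.0101, adjusted p = 0.0424) and Ucma (r = -0.83, permutation p = 0.0056, adjusted p = 0.0392), yet the rank correlations, both -0.49 with an adjusted permutation p of 0.35, did not pass, and 8 of the 10 Acan values lay at the top of the scale. The pairs Chad with Cnmd and Cytl1 with Cnmd stood at r = -0.02 and 0.06 (permutation p = 0.95 and 0.87). In the NP none of the 3 pairs passed by r, the highest being Acan with Hapln1 at r = 0.57 (permutation p = 0.0863, adjusted p = 0.14) and rho = 0.76 (permutation p = 0.0149, adjusted p = 0.0447).

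The promoters of the 2 pairs that passed by both coefficients are printed because these are the genes that varied together, from 250 bases before to 50 after the start site, from RefSeq on GRCm38.p6. Capitals mark TATAAA, the TATA box, read on either strand.
Chad, chr11:94564797-94565096, plus strand: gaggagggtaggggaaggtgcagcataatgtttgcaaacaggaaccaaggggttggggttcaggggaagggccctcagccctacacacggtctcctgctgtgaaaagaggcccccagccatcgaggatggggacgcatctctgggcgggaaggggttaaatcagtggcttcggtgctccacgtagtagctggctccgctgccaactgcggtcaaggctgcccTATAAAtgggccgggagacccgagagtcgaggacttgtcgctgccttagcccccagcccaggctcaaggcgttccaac
Cytl1, chr5:37735269-37735568, plus strand: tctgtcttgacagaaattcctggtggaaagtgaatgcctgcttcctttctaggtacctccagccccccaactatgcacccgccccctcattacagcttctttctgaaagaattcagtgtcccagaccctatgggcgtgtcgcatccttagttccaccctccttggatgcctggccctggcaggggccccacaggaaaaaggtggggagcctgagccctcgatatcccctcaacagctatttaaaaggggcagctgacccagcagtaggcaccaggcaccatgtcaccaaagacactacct
Cnmd, chr14:79662134-79662433, minus strand: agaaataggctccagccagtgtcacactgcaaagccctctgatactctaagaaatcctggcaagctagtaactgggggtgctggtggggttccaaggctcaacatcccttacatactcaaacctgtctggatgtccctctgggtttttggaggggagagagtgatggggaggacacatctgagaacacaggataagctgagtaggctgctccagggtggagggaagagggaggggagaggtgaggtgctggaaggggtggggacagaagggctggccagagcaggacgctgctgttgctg
Ucma, chr2:4975872-4976171, plus strand: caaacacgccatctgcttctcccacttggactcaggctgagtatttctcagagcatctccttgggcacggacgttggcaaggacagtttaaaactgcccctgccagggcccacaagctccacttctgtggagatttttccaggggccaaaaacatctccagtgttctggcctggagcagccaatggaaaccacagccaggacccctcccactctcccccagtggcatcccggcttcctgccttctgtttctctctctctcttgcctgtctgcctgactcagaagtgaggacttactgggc
Both strands were searched for TATAAA and for the SOX-type words ACAATG and AACAAT, which overlap each other in sequence. Chad alone held a match, TATAAA at 28 bases before its start, and none of the 9 members with an entry, all but Comp, held a SOX-type word. Of 27025 promoters of the same length, 14.2 percent held TATAAA and 19.1 percent a SOX-type word, so a match or its absence in these windows is a description of the letters only.

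The genes whose values ran most like those of Acan, Comp and Cytl1 were sought among 3902 genes tested in both tissues, over 20 arrays after subtraction of each tissue mean. For Acan they were Htra1, a serine protease that cleaves matrix proteoglycans, with r = 0.89, Peg3 with r = 0.84 and Slc2a1, a glucose transporter, with r = 0.82. For Comp they were Ptgis, the prostacyclin synthase gene, with r = 0.75, Lce1b with r = 0.74 and Alad with r = 0.71. For Cytl1 they were Ankrd24 and Scgb1b19, both with r = 0.67, and Abi3bp with r = 0.65. The arrays share their normalization within a tissue and the mice across tissues. For Acan, which lay at the top of the scale on most AF arrays, the likeness to Htra1 and Peg3 rested on WT replicate 33: in the AF r was 0.91 and 0.86 with that array and 0.43 and 0.48 without it, whereas for Slc2a1 it was 0.84 and 0.81. For the 3 genes like Comp and the 3 like Cytl1 the r in the AF was 0.72 to 0.94 with that array and 0.78 to 0.95 without it. All these genes were chosen by their r over the same arrays, so a high r in the AF is no support. In the NP r ran from -0.04 for Cytl1 with Ankrd24 to 0.59 for Acan with Slc2a1, with 0.03 for Acan with Htra1. Comp was above background on 1 of the 10 NP arrays. Its r in the NP, and the NP part of its r over 20 arrays, therefore rest mostly on background values.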

How the data were processed

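AF and NP RNA of 5 WT and 5 ank mice was hybridised to Clariom S arrays. The methods give an RNA integrity number of around 5, and the authors normalized the scans by sst-rma in the Transcriptome Analysis Console and deposited the log2 value of every probe set on each array. The genome build is not given in the sources used here. Of 28846 probe sets 19572 carry 1 gene symbol in the platform's annotation, and for the 55 genes with several the one with the highest mean was kept. All 10 members have 1 probe set each.

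Genes above background (the 95th percentile of 1425 receptor genes) in at least 5 of 10 arrays of a tissue were tested. The authors' filter on detection calls was not used. Genotypes were compared within a tissue by limma 3.58.1 (lmFit, eBayes) in R 4.3.3 with Benjamini-Hochberg adjustment at 0.05 over all genes tested, and the study's thresholds were counted on the same fits. NP was compared with AF after joint quantile normalization with the mouse as a block, since the labels give both tissues of a mouse the same number. The difference of the ank effect between the tissues was fitted on values as deposited. Deviations of same-mouse arrays from their group means correlated with a median of 0.157 (-0.185 to 0.677), against -0.0159 between different mice. A gene above background on no NP array of a genotype was given as a bound, on jointly normalized values only and at the background of each array. The steps were tested on simulated data. Spike-in sets were read from the added control RNAs. Correlations used SciPy 1.17.1 and NumPy 2.4.6, tables pandas 2.3.3 and figures matplotlib 3.10.9 in Python 3.11.15. Replicates are separate animals. The number of arrays limits the precision.

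The members, gene lists and comparisons were chosen with earlier results of these data known. The text names every member, from each further list up to 3 genes with the smallest p in a comparison, and the 3 genes most like Acan, Comp and Cytl1. Marker genes and arrays that stand out were chosen after their values were seen. Alternatives were other normalizations, filters, covariates, an ordinary equal-variance test per gene and leaving out arrays. The 3 combinations of arrays left out together, and the correlations without AF WT replicate 33, were chosen after seeing the data.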

Additional observations from a re-analysis of the deposited data

Results flagged for a closer look

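Each of the 10 genes was examined in each group of 5 arrays for an extreme sample that lay apart from the nearest other by more than 0.71 of the group's whole range, 40 sets of values in all, and 4 stood out. Chance gives about 1 in 20 such sets. Acan in the AF of WT replicate 33 read 17.29, where the other WT mice read 19.89 to 19.93, and Acan in the AF of ank replicate 31 read 19.58, where the others read 19.91 to 19.93. Both groups otherwise sat at the top of the scale, which narrows the range the gap is measured against. Matn3 in the AF of WT replicate 33 read 13.78, with the next WT value at 6.59. Matn4 in the NP of WT replicate 55 read 5.67, with the next value at 5.32, all of them below background.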

How the results depend on the processing

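Without the mouse as a block, limma again called 6 members between tissues in each genotype. Comp in ank mice then had an adjusted p of 0.00068 (limma). Dropping the pairing by replicate number moved the genes called from 1615 to 1792 in WT and from 529 to 437 in ank mice. It changed no call of a member. On values as deposited 4271 and 3721 genes were called in WT and ank mice, on arrays centred on their median 3145 and 1109, and with no filter 1194 in ank mice; the causes were not tested. Leaving out 1 mouse gave 487 to 2217 genes in WT and 90 to 850 in ank mice, and leaving out WT mice 32, 33 and 55 together gave 748. In WT mice Acan turned to -0.037 on centred arrays, ran from -0.31 without mouse 33 to 0.41 when 1 mouse was left out, and was -0.12 without mice 32, 33 and 55, while Hapln1 was -1.64 (adjusted p = 0.12) and Ucma -1.68 (adjusted p = 0.13) without those 3 mice. Ucma in ank mice had an adjusted p of 0.055 without mouse 39.

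By genotype, the 151 genes at the study's thresholds in the AF became 488 with no filter and 438 with the antigenomic background, both of which test more genes, 53 to 617 when 1 array was left out, and 1031 without WT replicate 33 and ank replicate 31. The 210 in the NP became 413, 379 and, by the ordinary equal-variance test, 132, with 120 to 335 when 1 array was left out. In the AF 2 members met these thresholds after quantile normalization within the tissue, with the control AUC as a covariate, or without WT replicate 33 and ank replicate 31, 0 by the ordinary equal-variance test, and 0 to 3 when 1 array was left out. With 1 array left out, Acan ran from -0.054 (without WT replicate 33) to 0.61, Ucma from -0.62 to 0.22 (without WT replicate 33) and Hapln1 from -0.036 (without WT replicate 53) to 0.66. Hapln1 also turned to -0.37 after quantile normalization and -0.028 with the control AUC. Cytl1 in the NP ran from -0.78 to 0.020 (without ank replicate 34). In the NP 1 member met the thresholds under every alternative run. The low control AUC of the AF arrays limits what could be measured there.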
